A study of Homo sapiens with 2 samples.

Results

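The genes described here are the components of tumour necrosis factor (TNF) receptor signalling and a set of inflammatory genes that the transcription factor NF-κB induces, in RKO cells, an established human colorectal cancer line. They were chosen as a list of 50 symbols, 29 for signalling proteins and 21 for induced targets. The list was drawn up with earlier results of these data known, so shares among its members are a description. Of these symbols 49 are among the 40205 of the deposited table. OTULIN, a deubiquitinase of linear chains, is listed under its older symbol FAM105B and is given beside the 49 without being counted. The series holds 2 libraries from cells collected on day 2 after transfection, 1 given an siRNA against hnRNPK (titled sihnRNPK) and 1 given a control siRNA (titled siNC). HNRNPK encodes an RNA-binding protein, and the genotype label hnRNPK-/- of the first library stands beside a protocol that describes siRNA. The labels give both libraries as 1 cell line, at 1 time, with total RNA, and name no replicate cultures. HNRNPK itself was at 61.5 FPKM in hnRNPK siRNA cells and 338.0 FPKM in control siRNA cells, 5.50-fold lower (95% counting interval 5.27 to 5.73).

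TNF receptors gather adaptor proteins (TRADD, TRAFs, RIPK1) and ubiquitin ligases at the membrane. Ubiquitin chains built there recruit the kinase TAK1 (gene MAP3K7) with its TAB partners and the IκB kinases, which release NF-κB to the nucleus, where it switches on chemokines, adhesion molecules and also its own inhibitors. In colon epithelium the pathway is known for calling in neutrophils and for protecting cells from death.

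Levels are FPKM, fragments counted relative to gene length and library size, so they can be compared between genes. Each group has 1 library: no test between conditions can be made and no difference below has a replicate check. Library totals worked out from the values were 28550823 reads for hnRNPK siRNA and 25729856 for control siRNA. The intervals beside ratios are exact Clopper-Pearson intervals at 95% from whole reads recovered from the FPKM values. They hold for counting error and take no account of differences between cultures. The recovered reads are the fewest that the values allow, so they are written as "at least". If a gene had more reads than these, its interval would be narrower. An interval that includes 1 might then exclude it. A gene was taken as measured at a mean of 1 FPKM or more over both libraries, and called past 2-fold on log2(FPKM + 1), which makes the change of a low gene look smaller. Ratios and folds printed for single genes are of FPKM alone. With 1 FPKM added, the median log2 ratio of the 11454 measured genes was −0.15, a ratio of 0.904, which is taken here as the middle of all genes. Centring shifts every ratio by this value. With 0.1 FPKM added instead the median was −0.17, so the middle for ratios of FPKM alone may lie slightly lower.

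Of the 49 members 39 were measured, 26 signalling proteins and 13 induced targets. At least 2-fold higher in hnRNPK siRNA were TNFAIP3, IL8 and CXCL1, 3 of 39, against a background of 0.777% of all measured genes. At least 2-fold lower was MAP3K7 alone, 1 of 39, against 3.55%. After centring on the median of all genes, or with TMM factors, the split was 5 higher and 0 lower, beside 1.24% and 2.1% of all measured genes after centring. TRAF1 and ICAM1 joined the higher genes and, with 1 FPKM added, MAP3K7 was no longer past 2-fold. Its ratio of FPKM alone was 0.481 after centring and 0.492 with TMM factors. In bulk RNA, more RNA in every cell and more cells with the RNA cannot be told apart. At 1.5-fold the higher members were 8 of 39, against 3.67% of all measured genes, and the lower ones 3 of 39, against 14.7%. The 8 were TRAF1, TNFAIP3, IL8, CXCL1, CXCL3, ICAM1, CD83 and IER3, and the 3 were MAP3K7, TAB1 and CXCL16. At 3-fold 0 of 39 were called either way, against 0.0873% of all genes higher and 0.34% lower. The induced targets had a median log2 ratio of 0.53 and the signalling proteins one of −0.10, beside −0.15 for all measured genes. These counts and medians are a description, as the list was drawn up with earlier results of these data known. In addition, 4 measured members (TRAF1, CXCL1, CXCL2 and CXCL3) passed the level limit only through their hnRNPK siRNA value, and none only through its control siRNA value.

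The sequences shown first are promoters of members with a higher value in hnRNPK siRNA in which an NF-κB motif was found. Windows of 300 bases (250 before and 50 after the annotated start) were taken from RefSeq on GRCh38.p14, 39 of the 50 members had at least 1, and they are printed on the gene's own strand. The word GGAATTTCC was searched on both strands, as was the κB consensus, a longer and looser pattern that overlaps it in CXCL1, CXCL2 and CXCL3. Capitals mark every base that belongs to a match of either. Both motifs were chosen with the values of these genes known. The 5 members with GGAATTTCC come first.

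CXCL1: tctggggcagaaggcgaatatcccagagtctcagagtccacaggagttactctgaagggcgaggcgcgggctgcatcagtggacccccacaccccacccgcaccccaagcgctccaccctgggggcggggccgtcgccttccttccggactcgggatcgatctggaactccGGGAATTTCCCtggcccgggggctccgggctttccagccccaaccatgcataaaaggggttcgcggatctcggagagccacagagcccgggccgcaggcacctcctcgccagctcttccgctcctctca
CXCL2: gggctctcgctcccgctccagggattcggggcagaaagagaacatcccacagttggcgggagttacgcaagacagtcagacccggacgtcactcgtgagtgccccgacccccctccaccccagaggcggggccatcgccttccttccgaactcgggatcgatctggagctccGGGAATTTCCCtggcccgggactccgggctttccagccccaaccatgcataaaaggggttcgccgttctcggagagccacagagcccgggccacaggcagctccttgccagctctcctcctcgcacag
CXCL3: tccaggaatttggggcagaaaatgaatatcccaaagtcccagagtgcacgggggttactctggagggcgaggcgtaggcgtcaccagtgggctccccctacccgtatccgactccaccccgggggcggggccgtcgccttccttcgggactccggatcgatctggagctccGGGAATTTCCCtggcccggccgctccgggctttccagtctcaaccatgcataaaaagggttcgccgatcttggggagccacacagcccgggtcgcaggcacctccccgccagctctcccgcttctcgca
IL8: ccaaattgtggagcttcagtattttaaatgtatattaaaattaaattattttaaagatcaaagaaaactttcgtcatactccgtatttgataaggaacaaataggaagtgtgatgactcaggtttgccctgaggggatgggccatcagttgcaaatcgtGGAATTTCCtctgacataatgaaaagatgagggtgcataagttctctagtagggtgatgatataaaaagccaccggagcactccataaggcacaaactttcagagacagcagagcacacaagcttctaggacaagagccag
ICAM1: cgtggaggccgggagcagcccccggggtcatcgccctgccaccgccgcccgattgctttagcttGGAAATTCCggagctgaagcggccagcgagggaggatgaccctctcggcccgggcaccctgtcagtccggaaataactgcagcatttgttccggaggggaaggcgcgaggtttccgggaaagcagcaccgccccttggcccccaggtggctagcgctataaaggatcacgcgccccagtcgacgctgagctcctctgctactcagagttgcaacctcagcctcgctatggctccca

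Next are 3 members with the κB consensus only, TNFAIP3 with 2 matches, CD83 with 6 that partly overlap, and CCL20 with 1. CD83 has its matches at 1 of 2 annotated starts. TNIP1 and TRAF3, with 1 consensus match each, are not printed. CCL20 is printed although its interval includes 1. Of members with intervals above 1, TRAF1, PLAU, SOD2, TNFRSF1A, TRAF2, TBK1 and MAP3K14 had windows with neither motif, and IER3 had no window.

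TNFAIP3: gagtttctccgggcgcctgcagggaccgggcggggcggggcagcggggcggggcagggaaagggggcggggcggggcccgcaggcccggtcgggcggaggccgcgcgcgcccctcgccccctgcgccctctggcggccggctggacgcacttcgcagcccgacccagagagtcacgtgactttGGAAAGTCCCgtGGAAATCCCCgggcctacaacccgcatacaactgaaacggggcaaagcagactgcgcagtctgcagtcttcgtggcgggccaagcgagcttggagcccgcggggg
CD83: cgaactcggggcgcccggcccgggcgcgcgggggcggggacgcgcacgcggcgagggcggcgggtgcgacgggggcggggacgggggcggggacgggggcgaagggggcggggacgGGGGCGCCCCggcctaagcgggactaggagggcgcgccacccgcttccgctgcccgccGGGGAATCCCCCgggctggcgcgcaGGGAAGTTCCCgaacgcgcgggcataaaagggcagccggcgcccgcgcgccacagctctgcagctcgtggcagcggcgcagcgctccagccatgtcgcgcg
CCL20: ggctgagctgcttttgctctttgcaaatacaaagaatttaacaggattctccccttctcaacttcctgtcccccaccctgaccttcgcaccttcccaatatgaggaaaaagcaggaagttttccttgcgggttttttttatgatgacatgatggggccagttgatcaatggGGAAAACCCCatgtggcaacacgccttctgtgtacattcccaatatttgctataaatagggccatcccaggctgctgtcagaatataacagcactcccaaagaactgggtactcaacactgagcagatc

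In this order the windows lie at chr4:73869143-73869442 on the + strand for CXCL1, chr4:74099146-74099445 on the − strand for CXCL2 and chr4:74038640-74038939 on the − strand for CXCL3. IL8 (now CXCL8) has chr4:73740319-73740618 on the + strand and ICAM1 has chr19:10270870-10271169 on the + strand. TNFAIP3 has chr6:137867009-137867308, CD83 has chr6:14117522-14117821 and CCL20 has chr2:227813592-227813891, all on the + strand. The 4 chemokine genes thus lie in 1 cluster on chromosome 4. In CXCL1 and CXCL3 the word starts 78 bases before the annotated start and in CXCL2 77 bases before it. It starts 91 bases before it in IL8 and, on the opposite strand, 186 bases before it in ICAM1. The windows of CXCL1 and CXCL3 were 82.5% identical in a gapped alignment, those of CXCL2 and CXCL3 73.8% and those of CXCL1 and CXCL2 71.9%.

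Across the genome GGAATTTCC was found for 0.560% of 27305 genes with a window, and for 5 of the 39 members with one (12.8%). All 5 are induced targets, of 15 with a window, while 0 of 24 signalling proteins had it. Each of the 5 had a higher FPKM in hnRNPK siRNA than in control siRNA, with ratios from 2.06 to 6.67. Of all measured genes 35.2% had a higher value there. CXCL1, CXCL2 and CXCL3, whose windows resemble each other, were measured only through that library. Over all 45 measured genes with the word the median log2 ratio was −0.07, beside −0.16 for measured genes with a window. Of these 45 genes 4 were at least 2-fold higher, IL8, CXCL1, NFKBIA and MAPK6, and 1 was lower, UEVLD. The 4 are 8.89% of them, against 0.39% of measured genes with a window. That share is a description, since the word was chosen with the values of IL8 and CXCL1 known. The κB consensus was found for 11 of the 39 members (28.2%), 6 of them targets, against 13.3% of all genes and 17.2% of the measured genes with a window. Its members did not move one way: TNFAIP3 was higher while CYLD was lower, as given below. Of the 1366 measured genes with the consensus 9 were at least 2-fold higher (0.659%), against 0.39% of measured genes with a window. A further 59 were at least 2-fold lower, against 3.55% of all measured genes. The median log2 ratio of the 1366 was −0.19, beside −0.16 for measured genes with a window. The AP-1 word TGANTCA was found for 3 of the 39 members, IL8, IL1A and IKBKG (7.69%), against 9.37% of all genes. A match describes these letters in these windows and does not show that a factor binds there.

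**Figure D1:**
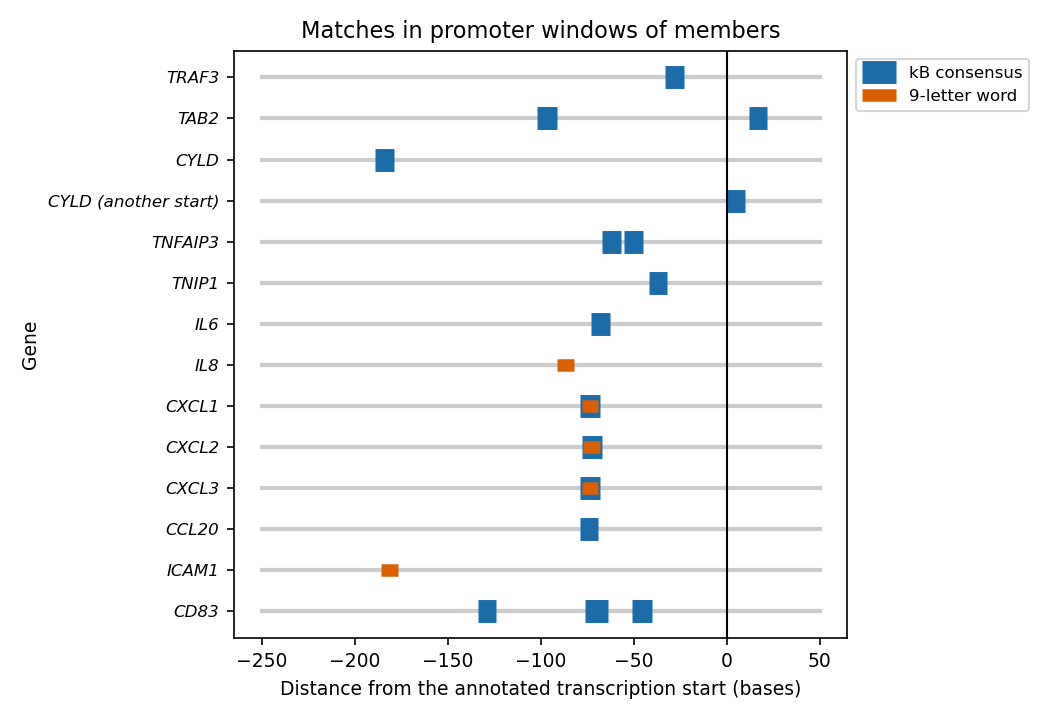
Matches of GGAATTTCC (orange) and of the κB consensus (blue) in the 300-base promoter windows of the members that have either. The axis is the distance in bases from the annotated transcription start (vertical line). Matches of the AP-1 word TGANTCA are not drawn. A gene with matches at another annotated start has a line for it. In CXCL1, CXCL2 and CXCL3 both overlap at 77 or 78 bases before the start, and in CCL20 the consensus lies 79 bases before it.

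The chemokine genes, whose products draw in neutrophils and other leukocytes, held the highest ratios of the induced targets. CXCL1 was at 2.17 FPKM in hnRNPK siRNA cells and 0.326 FPKM in control siRNA cells, from at least 37 and at least 5 reads. It was 6.67-fold higher (2.61 to 21.7), and 0.323% of measured genes had a higher log2 ratio. IL8, the main neutrophil chemokine of colon epithelium, was at 6.64 FPKM in hnRNPK siRNA and 2.48 FPKM in control siRNA, 2.67-fold higher (2.14 to 3.35). Both levels of IL8 exceed those of CXCL1 per length. CXCL2 was at 1.42 FPKM in hnRNPK siRNA and 0.677 FPKM in control siRNA, a ratio of 2.10 (1.24 to 3.69). CXCL3 was at 1.51 FPKM in hnRNPK siRNA and 0.671 FPKM in control siRNA, a ratio of 2.25 (1.32 to 3.99). With 1 FPKM added neither CXCL2 nor CXCL3 is past 2-fold.

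These 3 CXCL genes resemble each other, so some reads could belong to a neighbour. Of the 50-base words of their GENCODE 29 transcripts, 4.81% for CXCL1, 12.5% for CXCL2 and 6.01% for CXCL3 also occur in another gene, chiefly another of the 3. IL8 has under 1% of such shared words. CCL20, which draws in CCR6-bearing cells, was at 0.998 FPKM in hnRNPK siRNA and 0.277 FPKM in control siRNA, from at least 12 and at least 3 reads. Its ratio of 3.60 has an interval, from these fewest reads, that includes no change (0.973 to 19.9), and its mean is below 1 FPKM.

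CXCL16, a membrane-anchored chemokine, was the exception among the chemokines. It was at 8.11 FPKM in hnRNPK siRNA and 15.9 FPKM in control siRNA, a ratio of 0.511 (0.439 to 0.595), and 94.8% of measured genes had a higher log2 ratio. Because of it the summed FPKM of the 7 chemokine genes was close in both libraries, 20.9 in hnRNPK siRNA and 20.3 in control siRNA. CCL2, which attracts monocytes, was listed at 0 in both.

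**Figure D2:**
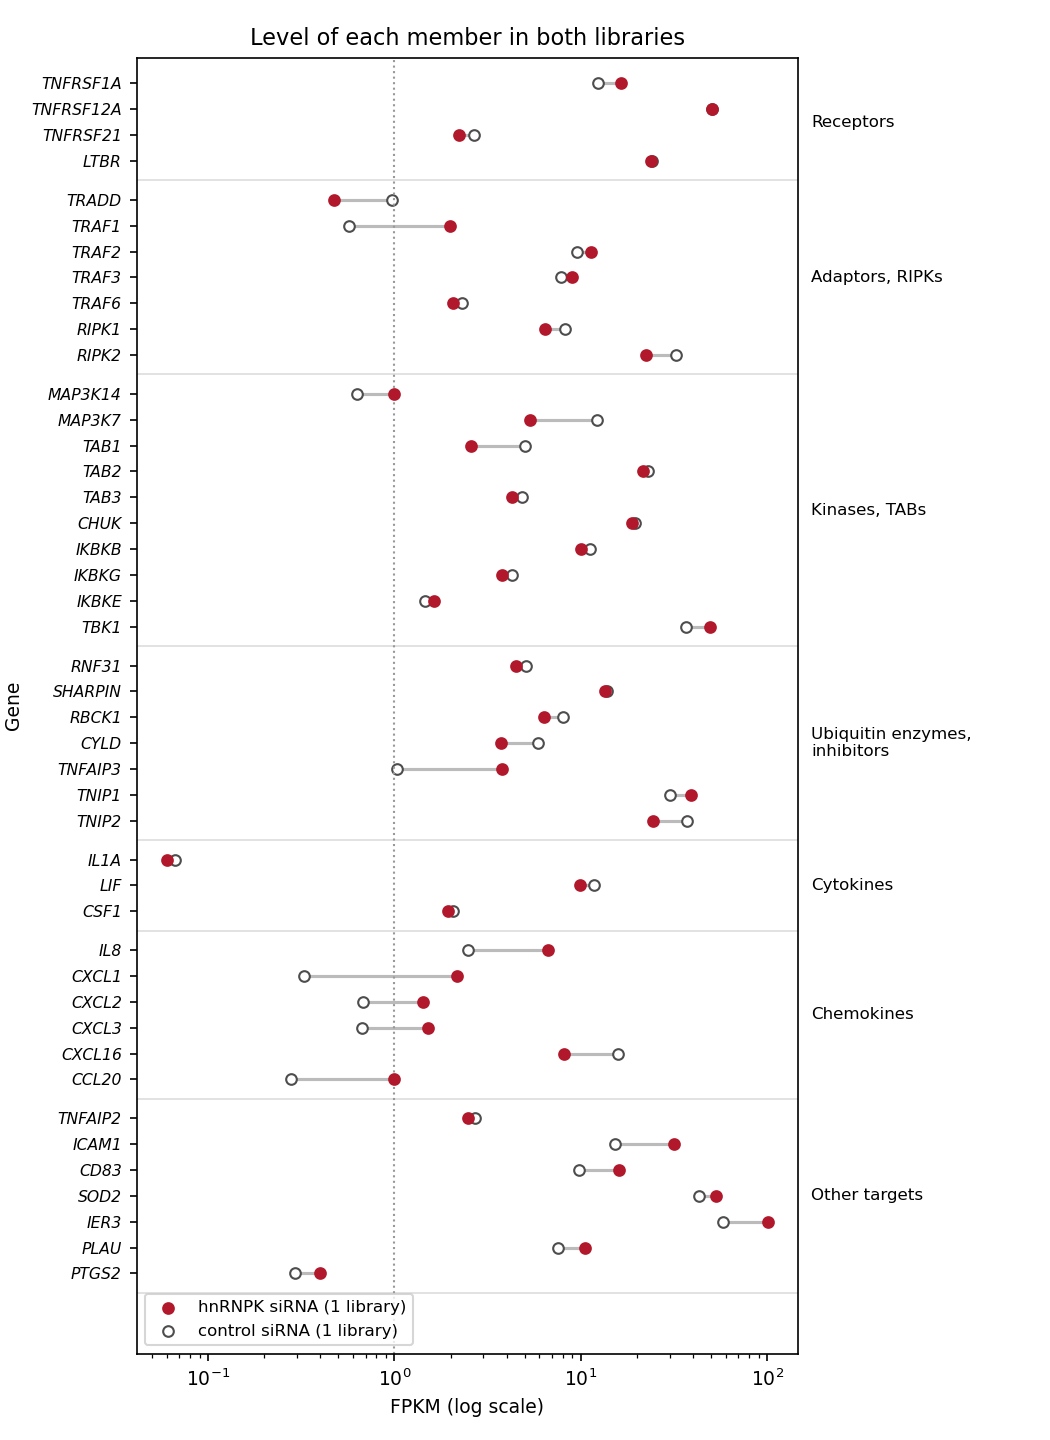
FPKM on a log axis for each member above 0 in both libraries, by role, with a filled point for the hnRNPK siRNA library and an open point for the control siRNA library (1 library each, no error bars); the dotted line is 1 FPKM. CXCL1 has the widest gap, 2.17 FPKM in hnRNPK siRNA and 0.326 FPKM in control siRNA, whereas TNFRSF12A and LTBR have points that overlie each other.

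Adhesion, survival and matrix genes included the most abundant targets, and of the 6 measured among these 7 genes 5 had intervals above 1, against 20.8% of all measured genes. ICAM1, the endothelial and epithelial ligand for leukocyte integrins, was at 31.5 FPKM in hnRNPK siRNA and 15.3 FPKM in control siRNA, 2.06-fold higher (1.75 to 2.43), just short of 2-fold with 1 FPKM added. IER3, an early response gene that modulates cell survival, had the highest level of any member, 101.0 FPKM in hnRNPK siRNA and 57.7 FPKM in control siRNA, a ratio of 1.75 (1.65 to 1.85). CD83, a surface protein best known on dendritic cells, was at 16.1 FPKM in hnRNPK siRNA and 9.77 FPKM in control siRNA, a ratio of 1.65 (1.27 to 2.16). Smaller differences were seen for the matrix protease gene PLAU (urokinase) and the mitochondrial superoxide dismutase gene SOD2. PLAU was at 10.6 FPKM in hnRNPK siRNA and 7.53 FPKM in control siRNA, a ratio of 1.41 (1.26 to 1.57). SOD2 was at 53.3 FPKM in hnRNPK siRNA and 43.1 FPKM in control siRNA, a ratio of 1.24 (1.16 to 1.31). Of the 50-base words of SOD2 8.65% also occur in other annotated genes, 4.56% in SOD2-OT1, so some of its reads could belong to those.

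The last 2 of these 7 did not stand apart from no change. TNFAIP2, a TNF-induced gene, was at 2.48 FPKM in hnRNPK siRNA and 2.69 FPKM in control siRNA, with a ratio of 0.921 (0.787 to 1.08) whose side of 1 turns with scaling. PTGS2 (COX-2), which makes prostaglandins, was low at 0.398 FPKM in hnRNPK siRNA and 0.294 FPKM in control siRNA, from at least 51 and at least 34 reads, a ratio of 1.35 (0.859 to 2.15).

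Cytokine genes were mostly silent in both libraries, and none that was measured was higher in hnRNPK siRNA at the deposited scaling, though CSF1 was after centring or with TMM factors. IL1B, IL6 and IL18 were listed at 0 in both. TNF itself, the ligand the pathway is named for, was at 0.0418 FPKM in hnRNPK siRNA, from at least 1 read, and listed at 0 in control siRNA. IL1A was at 0.0598 FPKM in hnRNPK siRNA and 0.0664 FPKM in control siRNA, from at least 5 reads in each. The measured cytokines were LIF, of the interleukin-6 family, and CSF1, the macrophage growth factor. LIF was at 9.87 FPKM in hnRNPK siRNA and 11.7 FPKM in control siRNA, a ratio near the middle of all genes. CSF1 was at 1.94 FPKM in hnRNPK siRNA and 2.06 FPKM in control siRNA, a ratio of 0.945 (0.784 to 1.14).

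Among the signalling proteins, the 2 with the highest ratios are themselves known to be induced by NF-κB. TNFAIP3 (A20), a ubiquitin-editing enzyme that shuts the pathway off, was at 3.79 FPKM in hnRNPK siRNA and 1.03 FPKM in control siRNA, from at least 513 and at least 126 reads. It was 3.67-fold higher (3.01 to 4.49), and 0.349% of measured genes had a higher log2 ratio. TRAF1, an adaptor that binds TRAF2 and the cellular IAPs, was at 1.99 FPKM in hnRNPK siRNA and 0.568 FPKM in control siRNA, from at least 253 and at least 65 reads. Its FPKM ratio was 3.51 (2.66 to 4.68), although with 1 FPKM added it falls short of 2-fold. TNIP1, a binding partner of A20 and also NF-κB-induced, was at 38.9 FPKM in hnRNPK siRNA and 30.2 FPKM in control siRNA, a ratio of 1.29 (1.22 to 1.36). IKBKE, given below and also NF-κB-induced, had an interval that includes 1.

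The lowest ratios among the signalling proteins measured were those of MAP3K7 and TAB1, of the TAK1 complex. MAP3K7, the TAK1 kinase itself, was at 5.32 FPKM in hnRNPK siRNA and 12.2 FPKM in control siRNA, from at least 785 and at least 1627 reads. It was 2.30-fold lower (2.11 to 2.51). TAB1, its activating partner, was at 2.57 FPKM in hnRNPK siRNA and 4.99 FPKM in control siRNA, a ratio of 0.516 (0.438 to 0.607). The partners TAB2 and TAB3, which bind ubiquitin chains, differed little from the middle of all genes. TAB2 was at 21.5 FPKM in hnRNPK siRNA and 22.8 FPKM in control siRNA, a ratio of 0.940 (0.891 to 0.993), and TAB3 was at 4.27 FPKM in hnRNPK siRNA and 4.84 FPKM in control siRNA.

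The IκB kinase complex was close to equal in both libraries. CHUK (IKKα) was at 18.9 FPKM in hnRNPK siRNA and 19.4 FPKM in control siRNA, a ratio of 0.974 (0.914 to 1.04). IKBKB (IKKβ) was at 9.96 FPKM in hnRNPK siRNA and 11.3 FPKM in control siRNA, a ratio of 0.886 (0.817 to 0.960). IKBKG (NEMO), the scaffold subunit, was at 3.77 FPKM in hnRNPK siRNA and 4.25 FPKM in control siRNA, from at least 61 and at least 62 reads. The level of IKBKG is uncertain because 26.3% of its 50-base words also occur in the pseudogene IKBKGP1. All 3 ratios lie on the other side of 1 under at least 1 other scaling.

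The IKK-related kinases and NIK were higher or near equal. TBK1, which also drives interferon genes, was at 49.7 FPKM in hnRNPK siRNA and 36.9 FPKM in control siRNA, a ratio of 1.35 (1.29 to 1.41). IKBKE (IKKε) was at 1.62 FPKM in hnRNPK siRNA and 1.47 FPKM in control siRNA, a ratio of 1.11 (0.874 to 1.41). MAP3K14 (NIK), the kinase of the non-canonical pathway, had a mean below 1 FPKM, with 0.996 FPKM in hnRNPK siRNA and 0.626 FPKM in control siRNA, from at least 127 and at least 72 reads. Its ratio was 1.59 (1.18 to 2.15).

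The 4 receptors were present in both libraries, and none was past 2-fold. TNFRSF1A, the main TNF receptor, was at 16.4 FPKM in hnRNPK siRNA and 12.4 FPKM in control siRNA, a ratio of 1.33 (1.12 to 1.57), and 9.41% of measured genes had a higher log2 ratio. TNFRSF12A (Fn14), the TWEAK receptor and the most abundant of the 4, was at 50.8 FPKM in hnRNPK siRNA and 50.5 FPKM in control siRNA. LTBR, the lymphotoxin β receptor that feeds the non-canonical pathway, was at 23.9 FPKM in hnRNPK siRNA and 24.2 FPKM in control siRNA. For both of these the interval includes 1, and LTBR changes side with scaling. TNFRSF21 (death receptor 6) was the least abundant, at 2.22 FPKM in hnRNPK siRNA and 2.67 FPKM in control siRNA, a ratio of 0.833 with an interval just below 1.

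Adaptors and RIP kinases lay on both sides of 1. TRAF2, which brings the cellular IAPs to the receptor, was at 11.3 FPKM in hnRNPK siRNA and 9.59 FPKM in control siRNA, a ratio of 1.18 (1.07 to 1.29). TRAF3, which holds NIK in check, was at 8.98 FPKM in hnRNPK siRNA and 7.85 FPKM in control siRNA, a ratio of 1.14 (1.04 to 1.26). TRAF6, of the interleukin-1 and Toll-like receptor branch, was at 2.06 FPKM in hnRNPK siRNA and 2.29 FPKM in control siRNA, with an interval that includes 1. Both RIP kinases lay below the middle of all genes.

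RIPK1, the kinase at the TNF receptor, was at 6.43 FPKM in hnRNPK siRNA and 8.26 FPKM in control siRNA, a ratio of 0.779 (0.709 to 0.855). RIPK2, which serves NOD receptors, was at 22.4 FPKM in hnRNPK siRNA and 32.6 FPKM in control siRNA, a ratio of 0.689 (0.620 to 0.764). TRADD, the first adaptor at TNFRSF1A, had a mean below 1 FPKM, with 0.472 FPKM in hnRNPK siRNA and 0.969 FPKM in control siRNA, from at least 27 and at least 50 reads. Its ratio was 0.487 (0.293 to 0.792).

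The linear ubiquitin ligase LUBAC, built from RNF31 (HOIP), RBCK1 (HOIL-1) and SHARPIN, had no subunit past 2-fold. RNF31 was at 4.47 FPKM in hnRNPK siRNA and 5.05 FPKM in control siRNA, and 30.8% of its 50-base words also occur in another annotated gene. SHARPIN was at 13.6 FPKM in hnRNPK siRNA and 13.7 FPKM in control siRNA. RBCK1 was at 6.38 FPKM in hnRNPK siRNA and 7.99 FPKM in control siRNA, a ratio of 0.798 (0.706 to 0.901). The intervals of RNF31 and SHARPIN include 1.

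The deubiquitinases that oppose these chains were lower, unlike A20. CYLD was at 3.75 FPKM in hnRNPK siRNA and 5.87 FPKM in control siRNA, a ratio of 0.639 (0.587 to 0.695). FAM105B (OTULIN) was at 4.05 FPKM in hnRNPK siRNA and 5.35 FPKM in control siRNA, a ratio of 0.756 (0.692 to 0.826). TNIP2, a further A20-binding inhibitor, was at 24.4 FPKM in hnRNPK siRNA and 37.0 FPKM in control siRNA, a ratio of 0.660 (0.597 to 0.729). TNIP2 and TNIP1, of the same family, thus differed in direction.

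**Figure D3:**
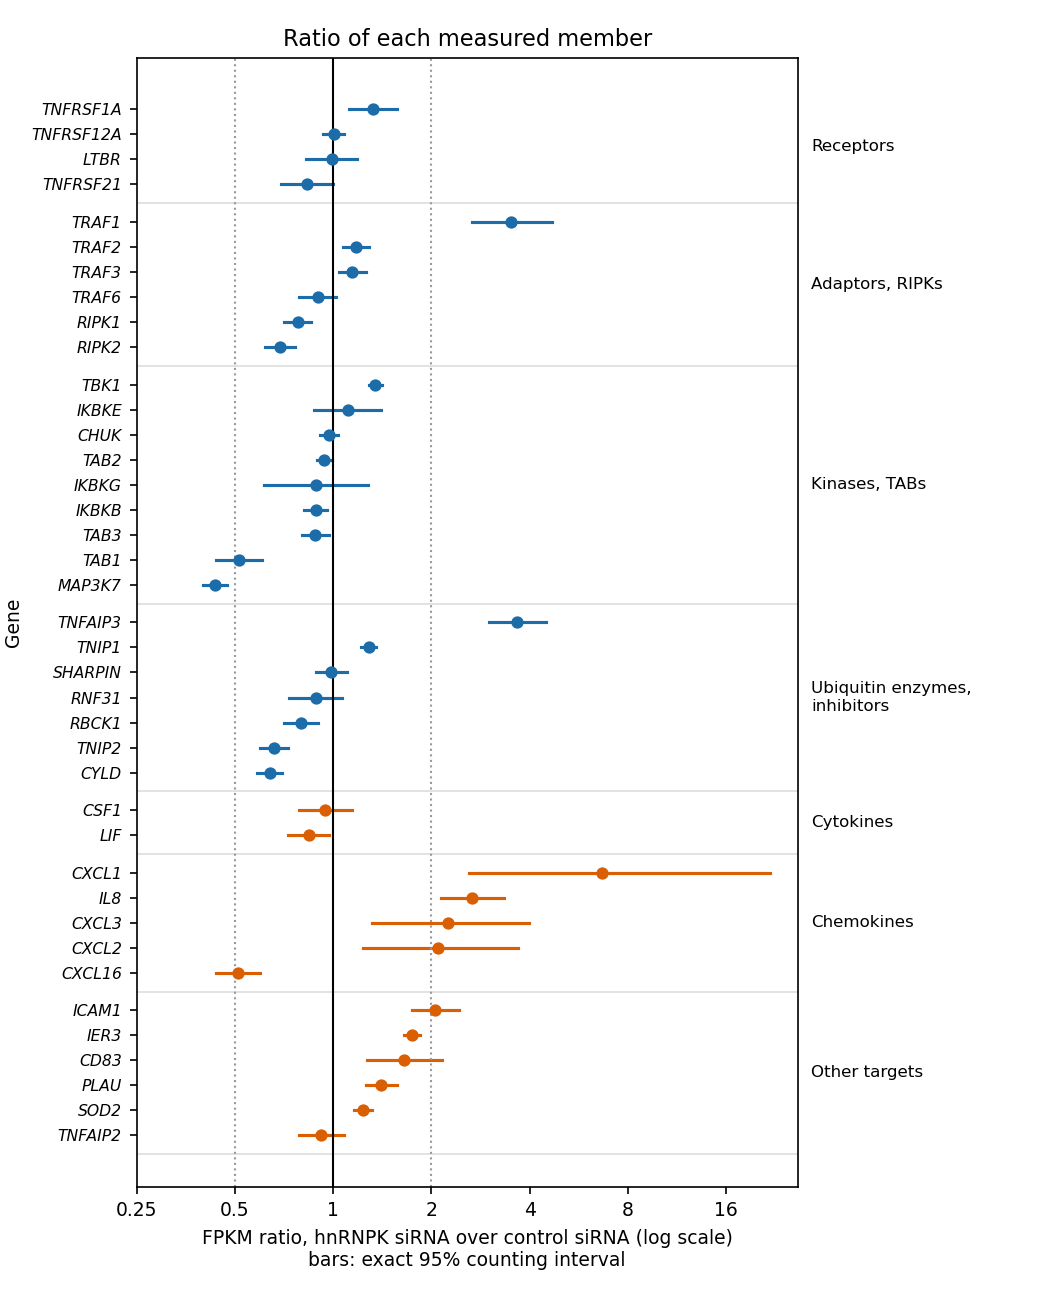
FPKM ratio of hnRNPK siRNA over control siRNA on a log axis for the 39 measured members, by role, with exact 95% counting intervals as bars (orange for induced targets, blue for signalling proteins); the solid line is a ratio of 1 and the dotted lines are 2-fold either way. The chemokines CXCL1, IL8, CXCL2 and CXCL3 lie to the right with TRAF1 and TNFAIP3, and MAP3K7, TAB1 and CXCL16 lie to the left.

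Counted by intervals, 9 of the 13 measured targets lay above a ratio of 1 and 2 below it (LIF and CXCL16), whereas 7 of the 26 measured signalling proteins lay above and 11 below. Over all measured genes 20.8% lay above and 48.4% below. Of the 9 targets CXCL1, CXCL2 and CXCL3 were measured only through the library in which they are high, as was TRAF1 among the 7, so these counts are a description. Of the 13 targets 11 had a log2 ratio above the median of all genes, and of the 26 signalling proteins 16 did. The difference between the classes was not tested. With centring or TMM factors 10 of the 39 ratios came to lie on the other side of 1: those of LTBR, TRAF6, TAB2, CHUK, IKBKB, IKBKG, RNF31, SHARPIN, CSF1 and TNFAIP2.

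**Figure D4:**
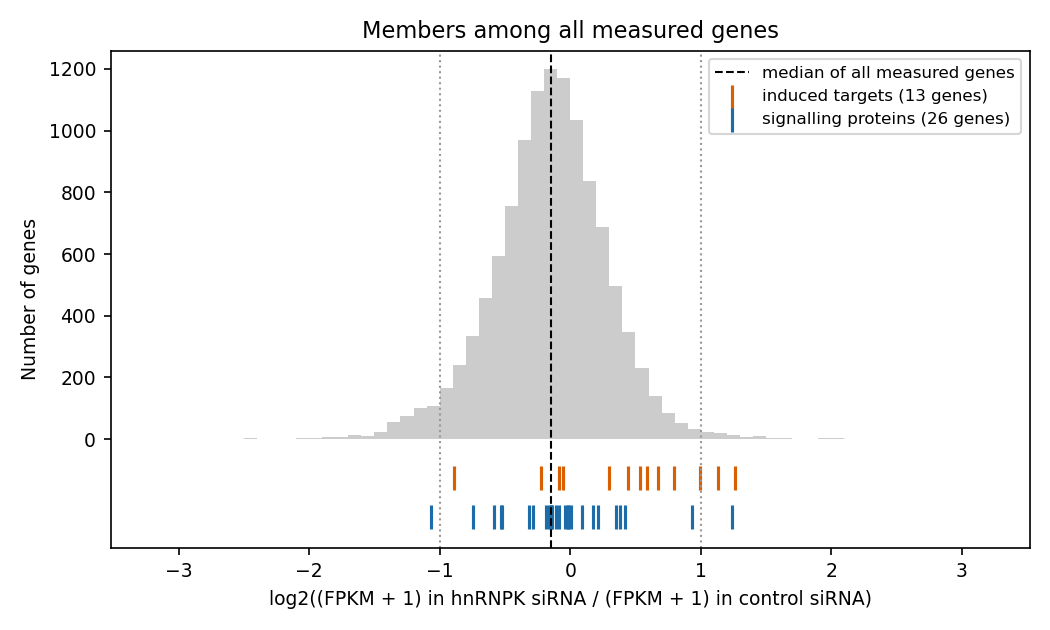
Histogram of the log2 ratio of FPKM + 1, hnRNPK siRNA over control siRNA, against the number of genes, over all 11454 measured genes, with the 13 measured targets (orange ticks) and 26 measured signalling proteins (blue ticks) below it; the dashed line is the median of all genes, −0.15, and the dotted lines are 2-fold. Most orange ticks lie right of the dashed line, while the blue ticks lie on both sides of it.

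Of 37 other measured core genes of the pathway 3 were at least 2-fold higher and 1 lower, against 0.777% and 3.55% of all measured genes. BIRC3, the cellular IAP that TRAF1 and TRAF2 bind, was at 22.2 FPKM in hnRNPK siRNA and 3.35 FPKM in control siRNA. NFKBIA (IκBα), the inhibitor that NF-κB induces, was at 76.6 FPKM in hnRNPK siRNA and 27.1 FPKM in control siRNA. IRAK2 and IRAK1, both of the interleukin-1 receptor branch, differed in direction. IRAK2 was at 4.19 FPKM in hnRNPK siRNA and 1.33 FPKM in control siRNA, 3.14-fold higher (2.56 to 3.89). IRAK1 was at 21.7 FPKM in hnRNPK siRNA and 65.3 FPKM in control siRNA, 3.01-fold lower (2.86 to 3.16).

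The NF-κB subunit genes differed less, with ratios of 1.44 (1.35 to 1.53) for NFKB1, 1.30 (1.04 to 1.63) for RELB, 1.21 (1.13 to 1.30) for NFKB2, 1.10 (0.789 to 1.54) for REL and 0.937 for RELA, whose side of 1 turns with scaling. Of 10 measured further receptors and 2 measured further ligands 0 were past 2-fold either way. Of 30 measured further targets 1 was at least 2-fold higher, against 0.777% of all genes, and 0 lower, against 3.55%. That gene was the tetraspanin gene CD82, at 2.08 FPKM in hnRNPK siRNA and 0.453 FPKM in control siRNA. By intervals 12 of the 30 lay above a ratio of 1 and 9 below it, beside 20.8% and 48.4% of all genes. The median log2 ratio of these 30 was 0.04, beside 0.53 for the 13 member targets, a difference that was not tested. The 0.53 is the value of CXCL2, which with CXCL1 and CXCL3 was measured only through hnRNPK siRNA. Some of the 30, CD82 among them, were also measured only through that library. At a mean of 5 FPKM or more the 7 member targets left had a median of 0.44. Of 10 measured regulators of cytokine mRNA decay, such as ZFP36 and KHSRP, 0 were past 2-fold, with log2 ratios from −0.24 to −0.03. Interferon and RNA-sensing genes had 0 of 9 measured genes past 2-fold and a median of −0.24, and 4 of the 19 listed, which include IFNB1, were listed at 0 in both libraries.

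Markers of other cells were near 0, apart from ITGAX. Of 12 leukocyte markers none reached a mean of 1 FPKM and their summed FPKM was 0.301 in hnRNPK siRNA and 1.12 in control siRNA, with PTPRC, CD3E and CD14 at 0 in both. Most of this was ITGAX, an integrin of myeloid cells, at 0.271 FPKM in hnRNPK siRNA and 1.06 FPKM in control siRNA, a ratio of 0.255 (0.171 to 0.372); its part in the other results was not tested. Of 10 stromal and endothelial markers none was measured, and the sum was 0.0434 in hnRNPK siRNA and 0.00656 in control siRNA. Of 8 epithelial markers 4 were measured (EPCAM, KRT8, KRT18 and CDX2), while KRT19, CDH1, VIL1 and CEACAM5 were listed at 0 in both.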

How the data were processed

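The authors deposited 1 table of FPKM values, with 1 column per library. Per the submitters' processing notes, reads were processed with Bowtie 0.12.2 on hg19; how reads were counted, on which annotation and with or without strand, is not given in the sources used here. Its hnRNPK column has only Si and K in common with its title, so its match is weaker than that of the control column. FPKM ratios proved to be fractions of whole reads (relative tolerance 5e-14, lengths within 1e-05 bases), which gave library totals and the fewest reads for 99.96% of the 19069 genes above 0. Intervals do not allow for reads that copy 1 molecule. Recovery, calls and intervals were tested on simulated data. Genes averaging 1 FPKM or more were kept, and log2(FPKM + 1) ratios were called at 2-fold. The members and gene lists were chosen with earlier results of these data known. Every measured member is named, and others with at least 10 reads in either library. Of other pathway genes, those past 2-fold and 6 fixed genes are named. REL and ITGAX were named after their values were seen. Alternatives changed the pseudocount, level limit, scaling, fold and class. Python 3.11.15, scipy 1.17.1 and Biopython 1.88 were used. Promoters came from RefSeq (GRCh38.p14) and transcripts from GENCODE 29, whose build differs from hg19, so they were matched by symbol and not by position.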

Additional observations from a re-analysis of the deposited data

How the results depend on the processing

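The 3 members at least 2-fold higher became 6 with a pseudocount of 0.1 FPKM, 5 after centring or with TMM factors, 8 at 1.5-fold, and 0 with a pseudocount of 5 FPKM, at a mean FPKM of at least 5 or at 3-fold. The 1 member lower became 3 at 1.5-fold and 0 after centring, with TMM factors, at 3-fold or with a pseudocount of 5 FPKM. Over all measured genes the higher shares were 0.777% at the main setting, 1.24% after centring, 3.67% at 1.5-fold and 0.0873% at 3-fold. The lower shares were 3.55%, 2.1%, 14.7% and 0.34% in that order. For the other pseudocounts, the higher level limit and TMM factors no share over all genes was worked out, so those counts have no background. At a mean of 5 FPKM the low genes TNFAIP3, IL8 and CXCL1 are no longer among those counted, and a pseudocount of 5 FPKM shrinks them by construction. The median of the signalling proteins, −0.10, turned to 0.0502 after centring and to 0.0499 with TMM factors, so its side of 0 follows the scaling. The median of the induced targets, 0.53, ranged from 0.28 to 0.72 over its alternatives. Counting OTULIN under its older symbol, or asking that the interval exclude no change, both added after the data had been seen, left the counts at 3 and 1. No paired analysis was possible because each group has 1 library. Depth limits the low genes, such as CXCL1, CCL20 and IL1A, with at least 5, at least 3 and at least 5 reads in control siRNA, and TNF, with at least 1 read in hnRNPK siRNA and 0 in control siRNA, while the spread between cultures is unknown for every gene.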
